A study of Mus musculus with 6 samples.

Results

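STAT3 is a transcription factor that cytokine receptors switch on through JAK kinases, and the pathway carries its own brakes. The genes described here are 10 such brakes and targets: the SOCS family members Socs1, Socs2, Socs3 and Cish, the PIAS proteins Pias1 and Pias3, the phosphatases Ptpn6 and Ptpn11, and the target genes Bcl3 and Pim1. They were taken as a fixed list of symbols, and every gene probe whose accession belongs to 1 of these symbols was used. This gave 14 probes on 23 spots, out of 39429 probes with 20659 named genes on the array.

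The study measured whole mouse embryos at day 12 that carried a STAT3 allele named STAT3-K177K180R, altered at 2 residues. The groups were 2 embryos homozygous for this allele (STAT3mut/mut), 2 heterozygous embryos (STAT3mut/wt) and 2 wild-type embryos (STAT3wt/wt). Per the labels all came from the same womb, while the sources used here give neither strain, sex nor how the allele was made. The labels call the wild-type embryos a wild type mutant, and their extraction text speaks of tumor tissue. Each embryo has an array of its own with 1 colour, and p-values measure only the spread between these embryos of the same womb.

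SOCS proteins are induced by the signal that they then block. Socs1 and Socs3 bind and inhibit JAK kinases, Cish and Socs2 are known mainly as brakes on growth hormone and other STAT5 signals, and all of them use a SOCS box to attach ubiquitin to their partners. PIAS proteins are SUMO ligases that bind STATs in the nucleus and are not known as targets of the pathway. Ptpn6 (SHP-1) is a phosphatase of blood cells that removes phosphate from receptors and JAKs, while Ptpn11 (SHP-2) is found in most cells and also passes receptor signals on to the RAS pathway. Bcl3 is an atypical IkappaB protein that acts in the nucleus with NF-kappaB, and Pim1 is a kinase that promotes survival.

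Levels are given as relative signal, which is the processed spot intensity divided by the 75th percentile of its array, so that 1 is the 75th percentile. Differences are on the log2 scale and were tested at every kept probe with limma, with p-values adjusted over all of them by the Benjamini-Hochberg method, and a probe was called at an adjusted p below 0.05. A relative signal orders embryos at 1 probe and does not rank genes. The 75th percentile of the processed intensity was 860 and 785 on the homozygous arrays, 1187 and 1263 on the heterozygous arrays and 1037 and 1067 on the wild-type arrays. Median signals of negative control spots were 43.5 and 48 on the homozygous arrays, against 26 to 27 on the others. The homozygous arrays were scanned as 1 slide and the other 4 arrays as another, so an effect of the slide and one of the homozygous genotype cannot be told apart. In whole embryos, fewer cells of a type and less RNA per cell cannot be told apart either. All 14 member probes passed the filter on dim signals, and 13 were well above background on all 6 arrays. Precision is limited by having 2 arrays a genotype.

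Socs1 and Bcl3 were higher in homozygous embryos than in both other genotypes, and no other member passed the test in any comparison. In homozygous over wild-type embryos 2 of 14 member probes were called, both higher, beside 27.7% of all probes tested (13.2% higher and 14.6% lower). In homozygous over heterozygous embryos the same 2 of 14 were called higher, beside 22.7% of all probes (9.56% higher and 13.1% lower). These 2 comparisons share the homozygous arrays. In heterozygous over wild-type embryos, which shared a slide, no member probe was called, beside 0.0% of all probes. A count of 2 of 14 is in neither homozygous comparison above the share of all probes called in either direction. In each it lies above the share called higher, by a margin that was not tested.

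Socs1, the JAK inhibitor that cytokines and interferons induce, had a relative signal of 0.887 and 0.799 in homozygous embryos, 0.538 and 0.402 in heterozygous embryos and 0.396 and 0.375 in wild-type embryos. Both homozygous embryos lay above both heterozygous embryos, and both heterozygous embryos lay above both wild-type embryos, although heterozygous replicate 2 was close to wild type. The probe (A_51_P279606, NM_009896) was 1.13 ± 0.17 higher on the log2 scale in homozygous than in wild-type embryos (SE, 2 embryos in each genotype, adjusted p = 0.00687 by limma), a change of 2.18-fold with a 95% interval of 1.63 to 2.92. Against heterozygous embryos the homozygous embryos were 0.86 ± 0.17 higher (adjusted p = 0.0189). The heterozygous minus wild type difference was 0.27 ± 0.17 (adjusted p = 1.00), with a 95% interval of −0.15 to 0.69. Without wild type replicate 2 the homozygous minus wild type difference was 1.09 with an adjusted p of 0.0604, past the threshold no longer. The difference from heterozygous embryos was 0.65 without heterozygous replicate 2 (adjusted p = 0.0805) and kept its size of 0.86, with an adjusted p of 0.0505, without either wild-type array.

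Bcl3, which is known as a gene that STAT3 activates after interleukin-6, read 1.18 and 0.919 in homozygous embryos, 0.674 and 0.635 in heterozygous embryos and 0.469 and 0.579 in wild-type embryos. As for Socs1, the 3 genotypes did not overlap and heterozygous embryos lay in between. The probe (A_55_P2066116, NM_033601) was 1.00 ± 0.18 higher in homozygous than in wild-type embryos (limma's adjusted p = 0.0112), a change of 2.00-fold with a 95% interval of 1.48 to 2.70. It was 0.67 ± 0.18 higher than in heterozygous embryos (adjusted p = 0.0421), while the heterozygous minus wild type difference was 0.33 ± 0.18 (adjusted p = 1.00, 95% interval −0.11 to 0.76). Without wild type replicate 1 the homozygous minus wild type difference was 0.85 (adjusted p = 0.0828). The homozygous minus heterozygous call was lost without homozygous replicate 1 (0.49, adjusted p = 0.0753), without either heterozygous array (adjusted p = 0.143 or 0.157) and without either wild-type array (adjusted p = 0.0751).

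The order homozygous over heterozygous over wild type, with no overlap between genotypes, held for 3 member probes, the third being the brightest Socs2 probe. Over all probes with a value on every array the same order held for 6.41%, and the opposite order, which no member showed, for 4.72%.

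**Figure D1:**
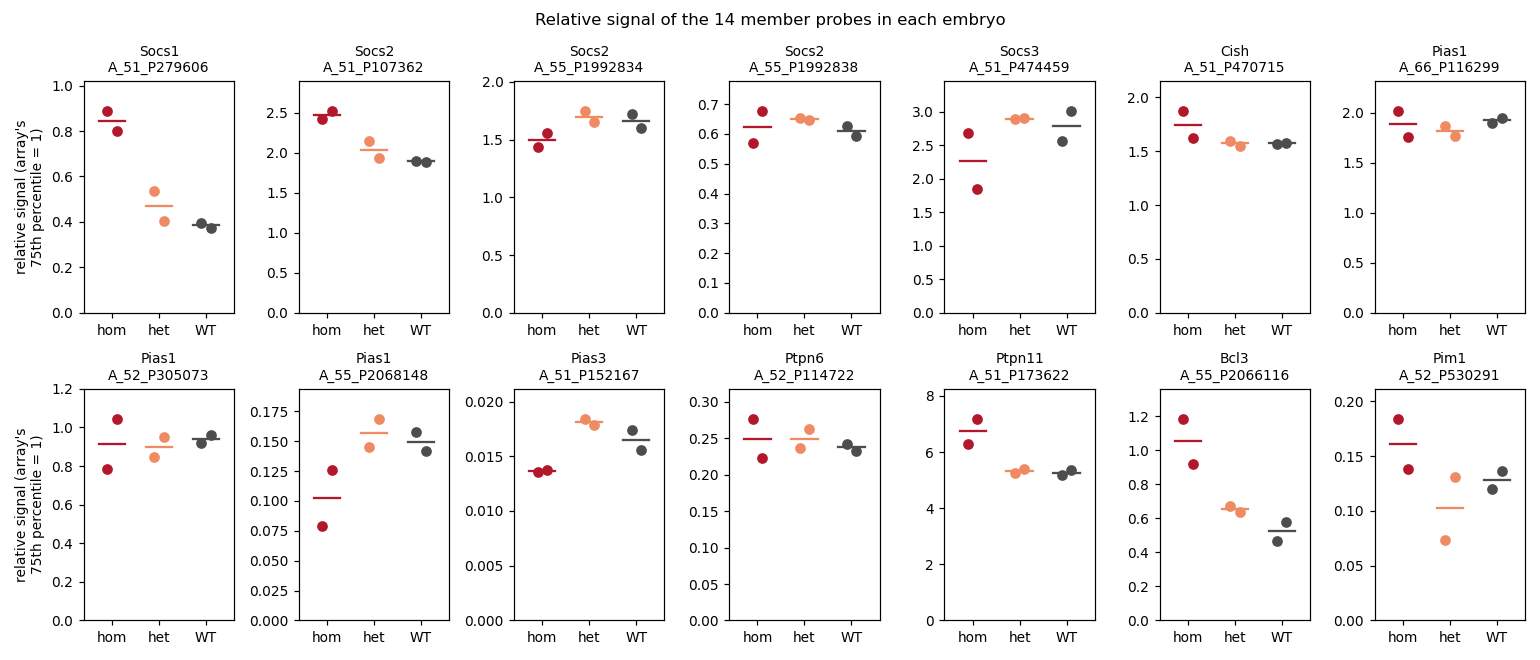
Relative signal of each member probe (y axis, with the 75th percentile of the array as 1, starting at 0) in homozygous (hom), heterozygous (het) and wild-type (WT) embryos, 1 point per embryo and a bar at the mean of 2. Socs1 and Bcl3 separate the genotypes, with homozygous means of 0.843 and 1.05 against wild-type means of 0.386 and 0.524, while those of Cish lie close together, at 1.75 and 1.57.

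STATs are known to drive SOCS genes through the element TTCNNNGAA, and the RefSeq promoter windows of the members were searched for it. A window holds 250 bases before the gene's start and 50 after it (GRCm38.p6), and the element is its own reverse complement, so both strands are covered. The letters are shown for the members that rose and for those that hold the element, 5′ to 3′ along the gene, with each match in capitals:
Socs1, chr16:10785487-10785786, minus strand: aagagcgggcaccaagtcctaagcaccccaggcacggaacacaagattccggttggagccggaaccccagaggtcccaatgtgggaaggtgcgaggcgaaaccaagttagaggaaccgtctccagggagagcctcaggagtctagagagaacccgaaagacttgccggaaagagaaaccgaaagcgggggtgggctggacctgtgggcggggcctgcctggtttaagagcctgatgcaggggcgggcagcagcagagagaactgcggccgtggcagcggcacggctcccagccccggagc
Bcl3, chr7:19822706-19823005, minus strand: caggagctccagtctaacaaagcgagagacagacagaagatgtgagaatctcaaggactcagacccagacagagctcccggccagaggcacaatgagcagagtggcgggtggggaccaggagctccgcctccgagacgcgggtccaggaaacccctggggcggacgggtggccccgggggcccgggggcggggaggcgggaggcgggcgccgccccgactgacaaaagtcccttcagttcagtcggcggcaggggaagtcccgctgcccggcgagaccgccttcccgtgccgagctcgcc
Socs3, chr11:117969317-117969616, minus strand: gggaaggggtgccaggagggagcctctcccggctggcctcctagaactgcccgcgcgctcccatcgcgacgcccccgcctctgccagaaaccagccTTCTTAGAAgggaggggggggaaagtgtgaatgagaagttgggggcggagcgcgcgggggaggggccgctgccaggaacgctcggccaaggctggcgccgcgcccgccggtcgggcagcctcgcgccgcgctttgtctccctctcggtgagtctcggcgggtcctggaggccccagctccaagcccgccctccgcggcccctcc
Cish, chr9:107296409-107296708, plus strand: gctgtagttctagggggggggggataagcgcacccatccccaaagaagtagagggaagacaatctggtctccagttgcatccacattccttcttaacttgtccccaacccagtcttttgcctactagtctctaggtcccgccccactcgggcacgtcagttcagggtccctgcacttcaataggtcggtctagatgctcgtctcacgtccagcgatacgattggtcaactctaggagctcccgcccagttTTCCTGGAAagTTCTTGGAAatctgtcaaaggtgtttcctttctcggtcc

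The Socs3 window held 1 match, TTCTTAGAA, whose first base lies at −154 from the start. The Cish window held 2 matches, TTCCTGGAA and TTCTTGGAA, whose first bases are the start itself (position 1) and position 12. The windows of Socs1 and Bcl3 held none, nor did those of Pias1, Pias3, Ptpn6, Ptpn11 and Pim1. Of 32851 windows of all genes, 8.30% held at least 1 match and 0.457% at least 2. A match is a description of these letters only. Neither Socs3 nor Cish passed the test in any comparison.

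Socs3, the inhibitor that binds the shared interleukin-6 receptor chain, read 2.68 and 1.85 in homozygous embryos, 2.89 and 2.91 in heterozygous embryos and 2.57 and 3.01 in wild-type embryos. The homozygous embryos differed from each other more than any other pair at this probe (A_51_P474459), and replicate 1 lay within the wild-type range. The homozygous minus wild type difference was −0.32 ± 0.20 (limma's adjusted p = 0.271, 95% interval −0.80 to 0.17). It was −0.58 without homozygous replicate 1 (adjusted p = 0.0313) and −0.05 without homozygous replicate 2 (adjusted p = 0.820), so that the value rested on homozygous replicate 2. Against heterozygous embryos it was −0.38 ± 0.20 (adjusted p = 0.210), and heterozygous minus wild type was 0.06 ± 0.20.

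Cish, a feedback inhibitor induced through STAT5, read 1.87 and 1.63 in homozygous embryos, 1.60 and 1.55 in heterozygous embryos and 1.57 and 1.58 in wild-type embryos. Homozygous replicate 2 was near the embryos of the other genotypes. The homozygous minus wild type difference was 0.15 ± 0.13 (adjusted p = 0.426), with a 95% interval of −0.17 to 0.47, and the heterozygous minus wild type difference was 0.00 ± 0.13 (95% interval −0.32 to 0.32). The interval of each leaves out a change as large as that of Socs1 in homozygous embryos.

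Socs2, the brake on growth hormone signalling, was measured by 3 probes that did not move alike. Its brightest probe (A_51_P107362) was printed on 10 spots of each array (9 used on 1 homozygous array), which gives the spread between spots within an array. Its relative signal was 2.42 and 2.52 in homozygous embryos, 2.15 and 1.93 in heterozygous embryos and 1.90 and 1.89 in wild-type embryos. Single spots ran from 2.35 to 2.51 and from 2.36 to 2.64 on the homozygous arrays, from 2.03 to 2.24 and from 1.84 to 2.00 on the heterozygous arrays, and from 1.81 to 1.95 and from 1.77 to 1.99 on the wild-type arrays. The coefficient of variation over spots was 2.23% to 3.47% per array, and no spot of a homozygous array reached down to any spot of the other 4. The spots of 1 array share its embryo and slide, so they are not replicates of a genotype. The homozygous minus wild type difference was 0.38 ± 0.13 (limma's adjusted p = 0.0679), with a 95% interval of 0.08 to 0.69, and it was called in 3 of 17 alternatives. The second probe (A_55_P1992834) read 1.43 and 1.56 in homozygous embryos, 1.75 and 1.65 in heterozygous embryos and 1.72 and 1.60 in wild-type embryos. At this probe both homozygous embryos lay below both wild-type embryos, the opposite of the first (−0.15 ± 0.13, adjusted p = 0.414). The third (A_55_P1992838) read 0.570 and 0.676 in homozygous embryos and 0.626 and 0.594 in wild-type embryos, which overlapped (0.03 ± 0.14, adjusted p = 0.905). All 3 probes carry the accession NM_007706, so the direction of Socs2 mRNA in homozygous embryos was not settled by these data.

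**Figure D2:**
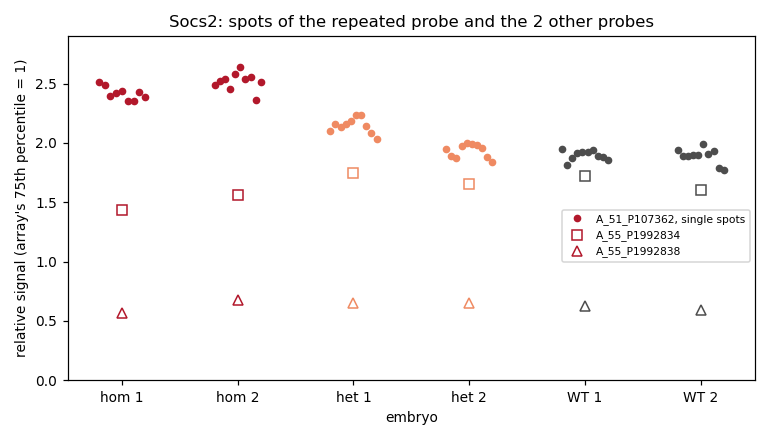
Relative signal (y axis, starting at 0) of Socs2 in each embryo, with single spots of the repeated probe as filled points and the other probes as open squares and triangles. The spots of the homozygous arrays, from 2.35 to 2.64, lie above all spots of the other arrays, which reach 2.24, while the squares are lowest on the homozygous arrays, at 1.43 and 1.56. Spots of an array are not replicates of a genotype.

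Of the PIAS proteins, Pias1 was measured by 3 probes of the same accession (NM_019663). The brightest (A_66_P116299) read 2.01 and 1.75 in homozygous embryos, 1.87 and 1.76 in heterozygous embryos and 1.90 and 1.94 in wild-type embryos. The second (A_52_P305073) read 0.786 and 1.04 in homozygous embryos, 0.846 and 0.949 in heterozygous embryos and 0.917 and 0.960 in wild-type embryos. In both of these the homozygous embryos lay on either side of wild type, and the differences were −0.03 ± 0.13 (limma's adjusted p = 0.871) and −0.05 ± 0.17 (adjusted p = 0.845). The dimmest probe (A_55_P2068148) read 0.0790 and 0.126 in homozygous embryos, 0.146 and 0.169 in heterozygous embryos and 0.158 and 0.142 in wild-type embryos. There both homozygous embryos lay below all others, by −0.58 ± 0.24 against wild type (adjusted p = 0.112). Its size rested on homozygous replicate 1, being −0.92 (adjusted p = 0.0108) without replicate 2 and −0.24 (adjusted p = 0.281) without replicate 1.

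Pias3, named as an inhibitor of STAT3 itself, had the dimmest probe of all members (A_51_P152167). It read 0.0136 and 0.0138 in homozygous embryos, where it was not well above background, 0.0184 and 0.0178 in heterozygous embryos and 0.0174 and 0.0156 in wild-type embryos. Pias3 passed the test neither against wild type (limma's adjusted p = 0.159) nor against heterozygous embryos (adjusted p = 0.0649). For a lower limit of the fold, each homozygous array was given its dimmest detected signal, or the Pias3 signal if brighter. This limit was 1.11-fold lower against wild type and 1.23-fold lower against heterozygous embryos. The dimmest detected signal comes from 1 probe and is not a detection limit, so a decrease of Pias3 was not shown. Against wild type the difference was −0.27 ± 0.13, and it was 0.22 with normexp background correction and scaling to the 75th percentile. Against heterozygous embryos Pias3 lay lower in 15 of 16 alternatives, and it was called lower with quantile normalization (−0.51, adjusted p = 0.0299) and in the deposited table (−0.50, adjusted p = 0.0299). It was called higher in 1, normexp background correction with scaling to the 75th percentile (0.36, adjusted p = 0.0321), while normexp with quantile normalization gave −0.13 (adjusted p = 0.252).

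Neither SH2 phosphatase passed the test. Ptpn11 (A_51_P173622) read 6.29 and 7.18 in homozygous embryos, 5.26 and 5.39 in heterozygous embryos and 5.19 and 5.35 in wild-type embryos. Both homozygous embryos were above all others, with a difference from wild type of 0.35 ± 0.13 (limma's adjusted p = 0.0922, 95% interval 0.03 to 0.67) and from heterozygous embryos of 0.34 ± 0.13 (adjusted p = 0.113). Heterozygous minus wild type was 0.02 ± 0.13. Without homozygous replicate 1 the difference from wild type was 0.45 and passed the test (adjusted p = 0.0474).

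Ptpn6 (A_52_P114722), the phosphatase of blood cells, read 0.277 and 0.222 in homozygous embryos, 0.236 and 0.262 in heterozygous embryos and 0.243 and 0.232 in wild-type embryos, and all 3 genotypes overlapped. The homozygous minus wild type difference was 0.06 ± 0.15 (adjusted p = 0.780, 95% interval −0.31 to 0.44) and heterozygous minus wild type was 0.07 ± 0.15. Among 14 probes of other blood leukocyte markers, 4 were called higher in homozygous than in wild-type embryos and none lower (28.6%, beside 27.7% of all probes). Against heterozygous embryos 1 was called higher (7.14%, beside 22.7% of all probes). The summed relative signal was 7.30 to 10.8 in homozygous, 8.07 to 8.15 in heterozygous and 7.11 to 7.89 in wild-type embryos. Coro1a, which was not called, was the largest part of each sum, with 5.42 and 2.87 in homozygous embryos.

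Pim1 (A_52_P530291) read 0.184 and 0.139 in homozygous embryos, 0.0735 and 0.131 in heterozygous embryos and 0.120 and 0.136 in wild-type embryos. Heterozygous replicate 1 lay far below the other heterozygous embryo, and this pair had the widest spread of any heterozygous pair among the members (coefficient of variation 39.8%). The homozygous embryos were above both other genotypes, but homozygous replicate 2 only just, and the difference from wild type was 0.32 ± 0.29 (limma's adjusted p = 0.433, 95% interval −0.38 to 1.02). Against heterozygous embryos the difference was 0.70 ± 0.29 (adjusted p = 0.128), 1.12 without heterozygous replicate 2 (adjusted p = 0.0493) and 0.28 without heterozygous replicate 1. A Pim1 response as large as that of Bcl3 lies inside the interval, so its absence was not shown.

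**Figure D3:**
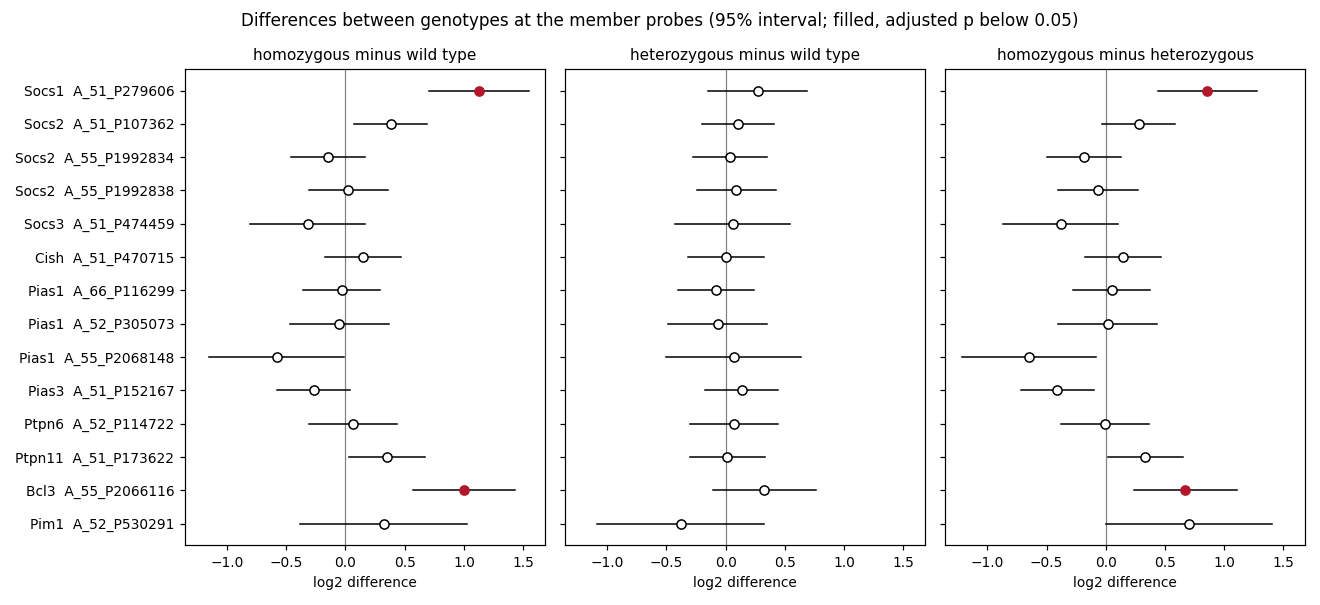
Log2 differences (x axis) at each member probe for homozygous minus wild type, heterozygous minus wild type and homozygous minus heterozygous embryos, with 95% intervals from limma, filled where the adjusted p was below 0.05. Only Socs1 (1.13 and 0.86) and Bcl3 (1.00 and 0.67) are filled, in both homozygous comparisons, and in the middle panel every interval reaches 0.

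Taken per probe, the median of the members lay near that of all probes. Their median homozygous minus wild type difference was 0.04 on the log2 scale, beside 0.08 over all 29909 probes tested, and they ran from −0.58 to 1.13. With only the brightest probe of each gene the member median was 0.24, beside 0.08 over all genes so taken. Genotypes did not overlap at 9 of 14 member probes (6 higher and 3 lower in homozygous embryos), beside 68.9% of all probes (38.4% higher and 30.5% lower). The median homozygous minus heterozygous difference was 0.03, beside 0.07 over all probes, and genotypes did not overlap at 10 of 14 member probes (6 higher and 4 lower), beside 62.9% of all probes (34.4% higher and 28.5% lower). For heterozygous minus wild type it was 0.06, beside 0.00, and genotypes did not overlap at 6 of 14 member probes (5 higher and 1 lower in heterozygous embryos), beside 26.5% of all probes (14.6% higher and 11.9% lower). The count of 0 calls there came from limma, and at an unadjusted p below 0.05 it was 0 of 14 members and 625 of 29908 probes.

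**Figure D4:**
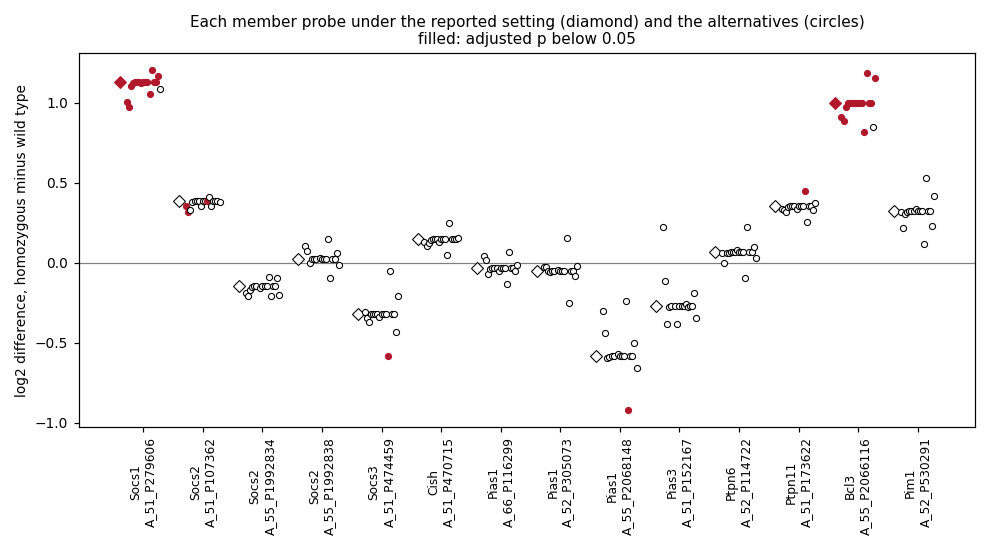
Homozygous minus wild type difference (y axis, log2) at each member probe under the reported setting (diamond) and each alternative (circles), filled where the adjusted p was below 0.05. Leaving out either heterozygous array repeats the fit of homozygous and wild-type embryos alone. Socs1 ranged from 0.98 to 1.20 and Bcl3 from 0.82 to 1.18, each called in 16 of 17 alternatives, while Socs3 ranged from −0.58 to −0.05.

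Stat3 mRNA itself did not pass the test. Its brighter probe (A_51_P201480) read 2.61 and 2.13 in homozygous embryos, 2.09 and 1.77 in heterozygous embryos and 1.76 and 1.76 in wild-type embryos, a homozygous minus wild type difference of 0.43 ± 0.16 (limma's adjusted p = 0.0924).

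The remaining brakes on cytokine signalling were described from a list of 16 genes outside the members, with 22 probes. In homozygous over wild-type embryos 3 probes were called higher and 1 lower (18.2%, beside 27.7% of all probes), with a median of 0.20, beside 0.08 over all probes. Ptpn2, a phosphatase that acts on JAKs and STATs in the nucleus, gave calls in both directions. Its probe A_55_P2080850 read 3.50 and 3.19 in homozygous embryos and 2.15 and 2.15 in wild-type embryos (0.64 ± 0.12, limma's adjusted p = 0.0144), while A_66_P116098 read 0.138 and 0.123 in homozygous embryos and 0.709 and 0.723 in wild-type embryos (−2.46 ± 0.16, adjusted p = 0.000600). The third Ptpn2 probe was at 0.15 and was not called. Pdlim2, a ubiquitin ligase that acts on STATs, was higher by 0.47 (adjusted p = 0.0435). A dim Ptpn1 probe, not well above background in homozygous embryos, was called lower there than in heterozygous embryos (limma's adjusted p = 0.0438). Its limit, set as for Pias3, was 1.14-fold lower and was lost without heterozygous replicate 1, so a decrease was not shown. The other Ptpn1 probe was not called (0.39 on the log2 scale). Of the 4 partners through which the SOCS box works, with 10 probes, the scaffold Cul5 (0.50, adjusted p = 0.0295) and 1 of 4 probes of Rnf7 (0.54, adjusted p = 0.0255) were higher in homozygous than in wild-type embryos, and none was lower (2 of 10, or 20.0%, beside 27.7% of all probes).

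Receptors, ligands, kinases and STATs, a list of 38 genes of which 34 had a kept probe, had 8 of 49 probes called higher and 5 lower in homozygous than in wild-type embryos (26.5%, beside 27.7% of all probes). Il11, a cytokine of the interleukin-6 family, read 0.244 and 0.220 in homozygous embryos and 0.0881 and 0.0696 in wild-type embryos (1.57 ± 0.17, limma's adjusted p = 0.00242). Osmr, a receptor whose gene is a known STAT3 target, was higher by 0.83 (adjusted p = 0.00729). The interleukin-6 receptor Il6ra was lower, with 0.226 and 0.162 in homozygous embryos and 0.364 and 0.368 in wild-type embryos (−0.94 ± 0.18, adjusted p = 0.0137). The cytokine Ctf1 was also lower (−0.70, limma's adjusted p = 0.0201). Stat4 was higher against wild-type embryos (0.62, adjusted p = 0.0141) and against heterozygous embryos (0.62, adjusted p = 0.0169).

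Targets of STAT3 outside the members, 30 genes with 37 kept probes of 29 of them, had 13 probes called higher and 2 lower in homozygous over wild-type embryos. Their median difference was 0.46, beside 0.08 over all probes, and 40.5% were called, beside 27.7%. The list was chosen with earlier results of these data known, so this excess cannot serve as evidence about STAT3 targets. Saa3 and Hp, which code for acute-phase proteins, were higher by at least 17.3-fold (adjusted p = 0.00240) and by 1.65 on the log2 scale (adjusted p = 0.00291). The homozygous embryos differed at Saa3, with 0.0926 and 0.278, and its limit was at least 29.9-fold without homozygous replicate 1 and at least 9.95-fold without homozygous replicate 2, values that were computed after the data were seen. Junb was called lower (limma's adjusted p = 0.0136), at 0.0123 and 0.0124 in homozygous embryos, where it was not well above background. Its limit, set as for Pias3, was 1.34-fold lower and ran from 1.19 to 1.52 with 1 array left out. As for Pias3, this limit does not show a decrease. Birc5, a survival gene of dividing cells, was lower at 1 of 3 probes (−1.54, adjusted p = 0.00677), with differences of 0.27 and 0.25 at the others.

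Markers of other cells were read beside Socs1 and Bcl3, and these lists too were chosen with earlier results of these data known. Neutrophil markers had 7 of 10 probes called higher in homozygous than in wild-type embryos and none lower (70.0%, beside 27.7% of all probes), but 1 of 10 against heterozygous embryos, beside 22.7% of all probes. Their summed relative signal was 51.9 to 60.7 in homozygous, 39.9 to 40.7 in heterozygous and 38.4 to 38.5 in wild-type embryos. Such sums are weighted to the brightest probes. Csf3r, which was not called, was the largest part of each neutrophil sum. It read 28.4 and 32.6 in homozygous, 27.5 and 23.2 in heterozygous and 27.5 and 26.2 in wild-type embryos. Markers of fetal hepatocytes, which make most acute-phase proteins, had 4 of 15 probes higher and none lower against wild type (26.7%, about the share of all probes). Against heterozygous embryos 3 of 15 were higher (20.0%, beside 22.7% of all probes). Their sums were 294 to 322 in homozygous, 183 to 229 in heterozygous and 206 to 209 in wild-type embryos. Macrophage markers had 4 of 14 probes higher and 2 lower against wild type (42.9%, beside 27.7% of all probes). Against heterozygous embryos none was higher and 2 were lower (14.3%, beside 22.7%). Their sums were 13.5 to 15.2 in homozygous, 12.7 to 13.6 in heterozygous and 11.8 to 11.9 in wild-type embryos. Erythroid markers had 1 of 13 probes higher and none lower against either genotype (7.69%). The erythroid sums were 268 to 296 in homozygous, 189 to 214 in heterozygous and 227 to 258 in wild-type embryos. Neural markers had none of 12 higher and 1 lower against either (8.33%). Both shares were below the 27.7% and 22.7% of all probes. No marker measured was at 0, and the part of these cells in the values of Socs1 and Bcl3 was not tested.

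Targets of STAT5, the factor that mainly drives Cish and Socs2, were given by 10 genes outside the members with 14 kept probes, of which 2 were higher and 3 lower (35.7%, beside 27.7% of all probes). Ccnd1 and Bcl2l1 are also in the list of STAT3 targets, Osm in that of receptors and ligands, and Pim2 in that of Pim kinases. The calls of Ccnd1 and Osm thus count in both of their lists. The cell cycle gene Ccnd1 (0.46, adjusted p = 0.0433) and Id1 (0.45, adjusted p = 0.0440) were higher in homozygous than in wild-type embryos. Igf1, the growth factor that growth hormone induces, was lower at 2 of 4 probes (−1.05, adjusted p = 0.00384, and −0.60, adjusted p = 0.0192). Its brightest probe read 5.73 and 7.08 in homozygous and 4.66 and 5.07 in wild-type embryos (0.39, not called). The remaining Igf1 probe was at −0.08 and was not called, so the direction of Igf1 was not settled. The cytokine Osm was lower (−0.53, adjusted p = 0.0382). Among Pim kinases and the NF-kappaB partners of Bcl3, with 13 probes, 1 was higher and 2 lower (23.1%, beside 27.7%). Pim3, a relative of Pim1, was higher (0.66, adjusted p = 0.0217), while Nfkb2, whose product p52 binds Bcl3, was lower (−0.53, adjusted p = 0.0410), as was 1 of 3 probes of Nfkbib (−0.48, adjusted p = 0.0360). In heterozygous over wild-type embryos no probe of any of these lists was called by limma.

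**Figure D5:**
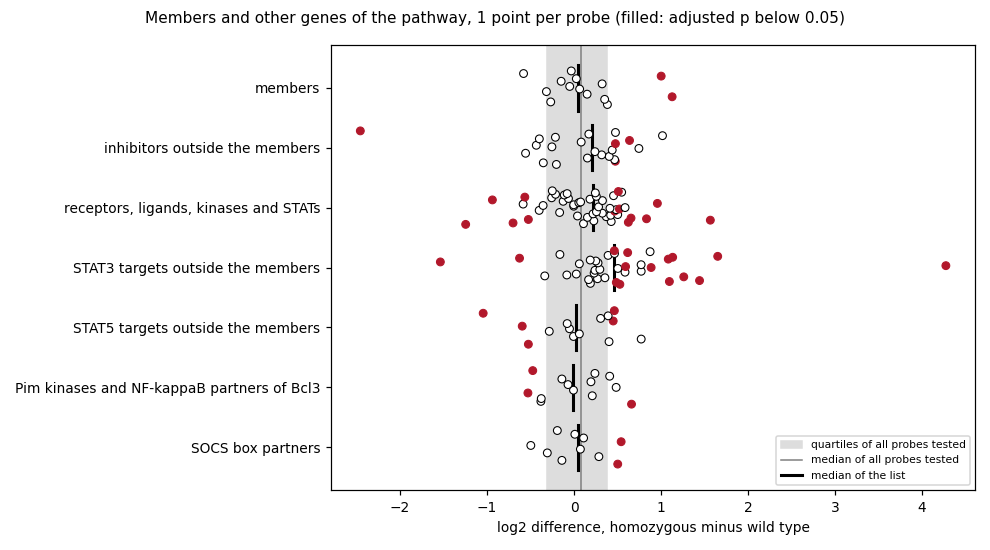
Homozygous minus wild type difference (x axis, log2) of each probe of the members and of the other lists, with black bars at list medians, a grey line at the median of all probes (0.08) and a grey band over their quartiles (−0.31 to 0.38). The member median of 0.04 lies inside the band and that of the other STAT3 targets, 0.46, beyond it, and the point far to the right is Saa3. The members and lists were chosen with earlier results of these data known.

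The profiles most like those of Socs1 and Bcl3 were looked up among 21248 other kept probes whose gene name is not a provisional one. For Socs1 they belonged to Ovgp1 (Pearson r = 0.9997 over 6 arrays) and Tmem184b (r = 0.998), with 60 probes above 0.99. For Bcl3 they belonged to Jak3 (r = 0.998), a kinase of the JAK family, and Cnr1 (r = 0.997), with 17 probes above 0.99. This Jak3 probe (A_51_P355360) read 0.0480 and 0.0408 in homozygous embryos, 0.0335 and 0.0313 in heterozygous embryos and 0.0265 and 0.0298 in wild-type embryos. The second Jak3 probe (A_55_P2010912) read 0.0345 and 0.0209 in homozygous embryos, 0.0241 and 0.0249 in heterozygous embryos and 0.0291 and 0.0249 in wild-type embryos, which overlapped, and its profile was unlike that of Bcl3 (r = 0.20). A correlation leaves out the size of a change. Homozygous minus wild type differences were 0.90 at Ovgp1, 0.65 at the first Jak3 probe and 0.83 at Cnr1, all called. At Tmem184b the difference was 0.30 and was not called (limma's adjusted p = 0.122), beside 1.13 at Socs1. The 6 points share 2 slides and 1 scaling, and the correlations are descriptions.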

How the data were processed

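Gene expression in 6 mouse embryos, 2 per genotype, was measured on 1-colour Agilent arrays annotated to mm9 per the file headers. The deposited files hold processed intensity values from Agilent Feature Extraction 11.0.1.1, which subtracted the background and detrended each array by itself, and they are not normalized between arrays, per the file headers. Spot and local background median signals (intensity) and flags per spot are also from these files. The authors deposited a table of log2 values with 1 common distribution, whose method is not given in the sources used here, and it served as an alternative.

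Of 44397 spots per array, 43020 measure genes. The 1377 control spots and the spots marked as outliers were left out, no spot was saturated, and spots of a probe were averaged after log2 and subtraction of the log2 of the array's 75th percentile. Kept probes (29910 of 39429) were those that 1 genotype or more had well above background on both its arrays, and 83 of their values were missing after outliers were removed, none at a member. RefSeq accessions named 27234 probes (69.1%) through the GRCm38.p6 gene table, used for names and promoter windows only, and 12195 probes, including those known only by Ensembl or clone identifiers, stayed unnamed and were tested. A promoter window was found for 9 of 10 members, with no entry for Socs2.

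All 6 arrays were fitted with limma 3.58.1 in R 4.3.3 (3 residual and 3.37 prior degrees of freedom), with no term for slide, and p-values were adjusted over all kept probes in each comparison. The fit was tested on simulated data. Named genes were all members, Stat3, up to 2 called symbols per direction from each list, and the 2 most alike profiles of each called member. The members and lists were chosen with earlier results of these data known, and the planned normexp correction used median spot signals because the files hold no mean signal. The alternatives were other background corrections, normalizations, filters, probe choices and fits, the deposited table and leaving out each array.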

Additional observations from a re-analysis of the deposited data

How the results depend on the processing

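Of the 17 alternatives, 16 kept the homozygous over wild type call of Socs1 and 16 that of Bcl3, 13 kept the homozygous over heterozygous call of Socs1 and 9 that of Bcl3. Over single member probes, 671 results kept their direction and side of the threshold or were called in neither, 14 lost a call, 13 gained one and 1 turned, Pias3 in homozygous over heterozygous embryos with normexp and the 75th percentile (0.36). In each comparison, leaving out either array of the third genotype gave the same values as fitting only the 2 genotypes compared. Counts of alternatives, here and above, thus repeat 1 fit and are not all separate checks. Depth of signal limits Pias3, and leaving an array out left 1 embryo of its genotype, assumed to vary like the others. The cause of these changes was not tested.

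With normexp and the 75th percentile, 5 member probes, 62 probes of the other lists and 13790 of all probes were called in homozygous over heterozygous embryos, and the median member difference was 0.13 there, 0.12 for homozygous minus wild type and −0.00089 for heterozygous minus wild type. This setting moved the median of all probes in homozygous over wild-type embryos by 0.11, and in homozygous over heterozygous embryos it was 0.24 where the reported setting gave 0.07. Higher probes then made up 67.2% of calls against wild type (47.5% as reported) and 75.9% against heterozygous embryos (42.1% as reported). For heterozygous minus wild type the median member difference was 0.012 with normexp and quantile normalization, 0.029 with quantile normalization, 0.023 with median scaling and 0.032 in the deposited table. With the brightest probe per gene the median member difference was 0.24 for homozygous minus wild type and 0.21 for homozygous minus heterozygous. The medians of all probes were 0.08 and 0.07 there. With no filter on dim probes, 26 probes of the other lists were called in homozygous over wild-type embryos, and 18 of these and 1 member probe in homozygous over heterozygous embryos. With only the 2 genotypes compared in the fit, 25 were called in homozygous over wild-type embryos, and 0 member probes, 11 other list probes and 3594 of all probes in homozygous over heterozygous embryos.

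The replicate numbers were not shown to pair the embryos, since deviations of same-numbered embryos correlated at 0.29, −0.16 and −0.0018 between genotypes. With the replicate number as a block, 1 member probe was called in homozygous over heterozygous embryos (Bcl3 was lost, adjusted p = 0.0603), and 8047 and 6548 of all probes were called in the 2 homozygous comparisons.

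Leaving out 1 array at a time gave 1 to 4 member probes called in homozygous over wild-type embryos and 0 to 3 in homozygous over heterozygous embryos. Calls in the other lists were 8 to 53 and 5 to 41, and those over all probes 2130 to 10780 and 1933 to 9555, with 0 to 7 in heterozygous over wild-type embryos. Median member differences ran from 0.0094 to 0.14 for homozygous minus wild type, from 0.038 to 0.094 for heterozygous minus wild type and from 0.015 to 0.15 for homozygous minus heterozygous. In homozygous over wild-type embryos 2454 probes were called without wild type replicate 1 and 2130 without replicate 2. In homozygous over heterozygous embryos 1933 were called without heterozygous replicate 1, 2793 without heterozygous replicate 2 and 3594 without either wild-type array.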
